A study of Mus musculus with 6 samples.

Results

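Collagen chain genes were taken by symbol: every protein-coding mouse gene named Col, a number, the letter a and a number. Of 55487 gene identifiers in the count files, 44 met this rule. By the known structure of their products they were divided into 11 fibrillar, 8 basement membrane and 25 other chains. RNA was sequenced from non-myocyte cells of the mouse heart labelled Cd11b+, Cd11b being a surface integrin of macrophages and other myeloid cells. All animals were C57BL/6. The WT group carried the floxed gene for the epidermal growth factor receptor (Egfr f/f), and the KO group carried its myeloid deletion (Egfr mKO, genotype EGFR -/-). Each group had 3 pools, each made from 5 animals by the numbers in the sample titles, except KO pool 3, which had 6. The sources used here give no Cre driver, age, sex or treatment. That the deletion is myeloid is known from the labels alone, and what limits it to those cells is not given.

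A collagen is built of 3 chains wound into a triple helix, either the same chain repeated or chains from different genes, so genes whose products share a molecule can be read against each other. Fibrillar collagens I, III and V form the cable-like fibrils of the heart's interstitium and are made mainly by fibroblasts. Type IV collagen forms the sheet-like network of basement membranes around capillaries, smooth muscle and cardiomyocytes, and types XV and XVIII carry sugar chains and sit in or beside those membranes. Type VI forms beaded filaments that lie between the membranes and the fibrils. Myeloid cells are not known as the main source of interstitial or type IV collagen in the heart, so the collagen RNA in a Cd11b preparation has to be read beside markers of the other cells it held.

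The start regions of 4 genes are shown because their RNAs lead the results: Col1a2 and Col3a1 as fibril chains, and Col4a1 and Col4a2 because these genes lie head to head. Each window holds 250 bases before and 50 bases after the start in RefSeq (GRCm38.p6), read 5′ to 3′ on the gene's strand. The Col1a2 window is chr6:4505368-4505667 on the + strand, and its capitals mark CCAAT, on either strand, and GGGCGG, the GC box. The Col3a1 window is chr1:45311288-45311587 on the + strand, and its capitals mark TATAAA. The Col4a1 window is chr8:11312777-11313076 on the - strand and the Col4a2 window chr8:11312555-11312854 on the + strand. Their capitals mark the 78 bases that both windows hold, on opposite strands.
Col1a2: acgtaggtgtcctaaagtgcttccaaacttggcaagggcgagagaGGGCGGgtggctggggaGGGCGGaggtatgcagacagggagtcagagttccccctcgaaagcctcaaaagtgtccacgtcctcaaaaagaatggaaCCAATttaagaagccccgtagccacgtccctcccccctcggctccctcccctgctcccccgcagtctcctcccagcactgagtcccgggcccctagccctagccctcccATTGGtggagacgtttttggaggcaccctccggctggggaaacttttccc
Col3a1: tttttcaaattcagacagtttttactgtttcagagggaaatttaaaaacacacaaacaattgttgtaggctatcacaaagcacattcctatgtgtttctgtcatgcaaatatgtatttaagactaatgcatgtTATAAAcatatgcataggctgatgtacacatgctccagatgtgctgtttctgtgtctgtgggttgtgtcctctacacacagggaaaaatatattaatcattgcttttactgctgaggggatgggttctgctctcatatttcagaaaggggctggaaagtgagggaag
Col4a1: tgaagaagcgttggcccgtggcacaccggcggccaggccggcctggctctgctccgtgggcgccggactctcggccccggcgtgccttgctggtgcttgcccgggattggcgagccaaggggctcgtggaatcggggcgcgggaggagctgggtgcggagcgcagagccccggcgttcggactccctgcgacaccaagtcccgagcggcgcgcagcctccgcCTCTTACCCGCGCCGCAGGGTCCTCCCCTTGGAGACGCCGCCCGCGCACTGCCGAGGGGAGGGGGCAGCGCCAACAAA
Col4a2: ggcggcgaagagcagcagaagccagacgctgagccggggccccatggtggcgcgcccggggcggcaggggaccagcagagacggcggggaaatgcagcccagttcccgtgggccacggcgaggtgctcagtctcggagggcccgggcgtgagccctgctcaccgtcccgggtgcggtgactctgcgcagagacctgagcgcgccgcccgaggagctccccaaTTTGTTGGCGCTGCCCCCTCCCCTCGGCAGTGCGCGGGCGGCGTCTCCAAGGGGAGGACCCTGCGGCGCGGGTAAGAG

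In the gene models used for lengths (GENCODE M21, GRCm38), the starts of Col4a1 and Col4a2 overlapped by 22 bases, those of Col4a4 and Col4a3 lay 71 bases apart and those of Col4a6 and Col4a5 lay 1308 bases apart. All 6 type IV genes were thus arranged as divergent pairs. RefSeq windows were found for 35 of the 44 genes, 38 windows in all. TATAAA, searched on both strands, stood in 5 of these 38 windows and in 13.6% of the 32851 windows of the whole table. CCAAT stood in 13 of 38 and in 37.4% of all windows, and GGGCGG in 23 of 38 and in 35.7% of all windows. A match is a run of letters, not a known binding site. Col1a2 held CCAAT 109 bases before its start, Col3a1 held TATAAA 117 bases before its start, and Col4a2 held CCAAT 32 bases before its start.

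The libraries held 17780707 to 27485129 reads assigned to genes. Egfr stood at 54.7, 43.0 and 44.7 CPM, reads scaled to a common library size by the TMM method, in WT pools 1, 2 and 3 and at 18.5, 15.9 and 17.4 in KO pools 1, 2 and 3. It was 1 of 2 genes called among 15707 tested, with a log2 fold change of -1.46 ± 0.13 (SE) and an adjusted p of 0.045 by edgeR's quasi-likelihood test. WT pool 1 stood apart from the other WT pools. Over all genes its counts differed from theirs by a chi-square of 76.9 and 84.1 per degree of freedom, against 41.3 to 58.5 from the KO pools and 45.8 between WT pools 2 and 3. Collagen calls are therefore also given without that pool. Nothing in the labels says whether the pools were prepared together, and p-values measure the spread between these pools. In bulk RNA, fewer cells of a type and less RNA per cell cannot be told apart.

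Collagen RNA made up a visible share of these Cd11b preparations, and its mean was lower in the KO pools, but no collagen gene passed the test with all 6 pools. Summed over the 44 genes, collagen RNA stood at 3706, 6147 and 9627 CPM in WT pools 1, 2 and 3 and at 3513, 2975 and 2657 CPM in KO pools 1, 2 and 3, so the KO mean was 46.9% of the WT mean and 38.6% of the mean of WT pools 2 and 3. In this sum no KO pool reached any WT pool. WT pool 1 was much closer to KO pool 1 than to WT pool 3. A filter on low counts left 38 of the 44 genes for testing.

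Among those 38, edgeR called 0 lower and 0 higher in KO at an adjusted p of 0.05, where it called 0.0127% of all genes tested lower and 0% higher. At an unadjusted p of 0.05, 26 of 38 were lower, against a background of 10.6%, and 0 were higher, against 4.77%. The log2 fold change was below 0 for 35 of 38, against 49.2% of all genes. The median over the 38 was -1.08, or -1.38 without WT pool 1, and over all genes tested it was 0.0072. No KO pool reached the lowest WT pool for 6 collagens (Col4a1, Col4a2, Col15a1, Col13a1, Col23a1 and Col28a1), where 10.1% of all genes did so. All KO pools lay above all WT pools for Col2a1 alone, where 9.59% of all genes did so. Without WT pool 1, every KO pool lay below both remaining WT pools for 31 of 38, against 21.4% of all genes. WT pool 1 lay within the range of the KO pools for 27 of 38, against 51% of all genes. Of the 23 collagens with a mean of at least 10 CPM, 21 were lower at an unadjusted p of 0.05. Of all genes at that CPM level, 10.8% were. In 3 of the 23 the highest KO value stayed under the lowest WT value, as in 9.34% of all genes at that CPM level.

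**Figure D1:**
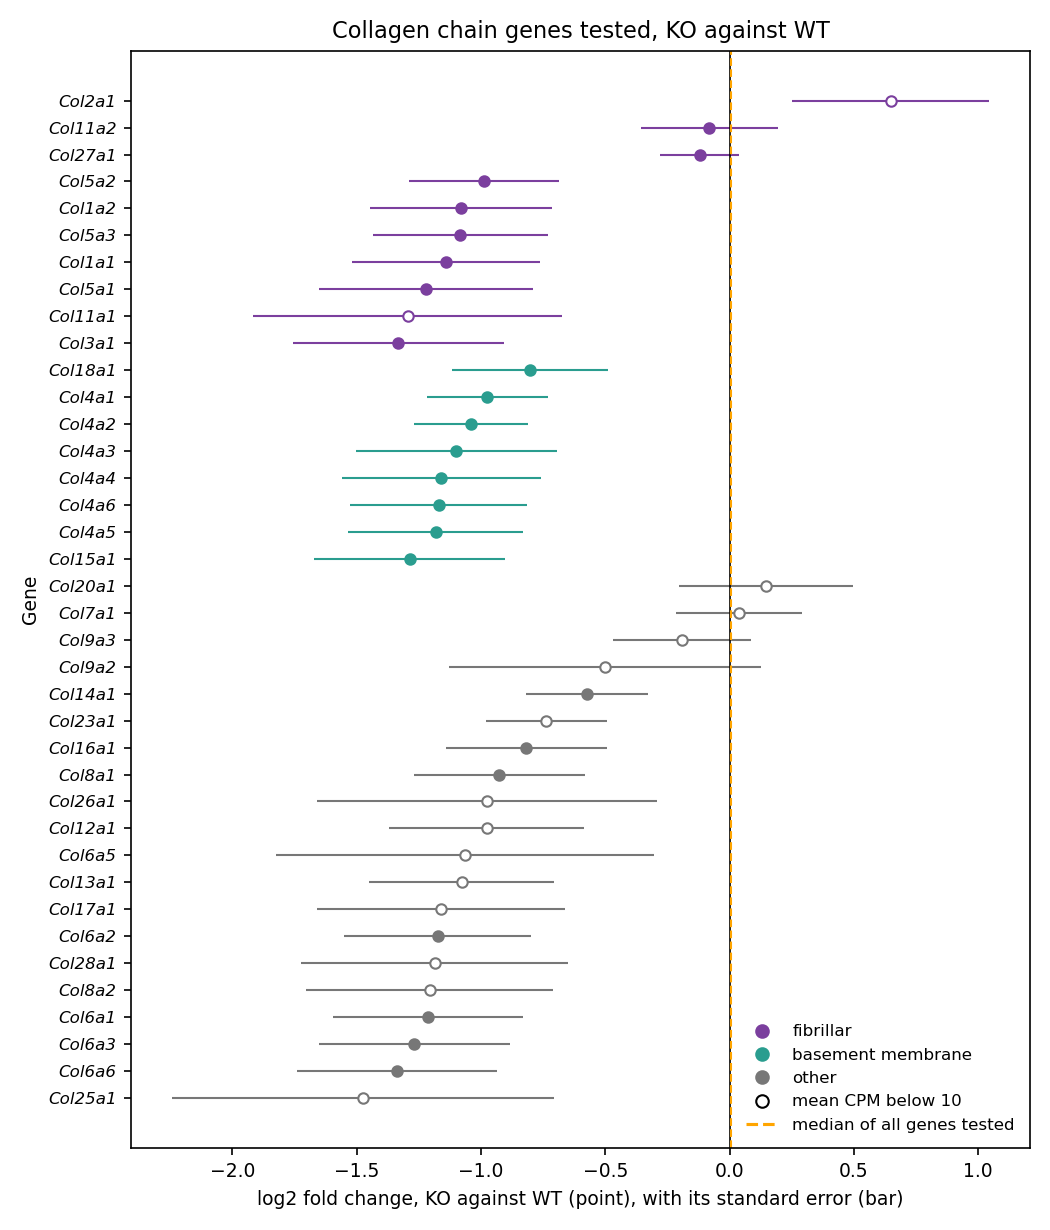
Log2 fold change of KO against WT (horizontal axis, points) with its standard error (bars) for the 38 collagen chain genes tested, coloured by class, open where the mean CPM was below 10. In 35 genes the point lies below 0, and the exceptions are Col2a1, Col20a1 and Col7a1. The dashed line is the median of all genes tested, 0.0072.

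The calls depended on the test and on WT pool 1. DESeq2 called 16 of the 44 collagens lower, against a background of 4.39% of 15071 genes, and 0 higher, against 1.13%. These 16 were Col1a1, Col1a2, Col3a1, Col5a1, Col5a2 and Col5a3 among fibrillar chains, Col4a1, Col4a2, Col4a4, Col4a5, Col4a6 and Col15a1 among basement membrane chains, and Col6a1, Col6a2, Col6a3 and Col6a6 among the others. With no low-count filter, edgeR called 17 of 44 lower, against 2.22% of 29010 genes. That share is over many genes with few reads, which the filter leaves out of the 15707 tested otherwise. Without WT pool 1, edgeR called 20 of 40 lower, against 5.97% of 16116 genes, and 0 higher, against 2.33%. Without WT pool 3, the pool with the most collagen RNA, edgeR called 0 collagens and 1 of 16169 genes tested. Leaving out WT pool 2 or KO pool 1 also gave 0 collagens and 1 gene. All 16 genes called by DESeq2 were also called by edgeR with no low-count filter and by edgeR without WT pool 1. With limma-voom, 0 were called, where it called 0.00637% of all genes lower.

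The genes of types I and III, the main fibril collagens of heart tissue, were the most abundant fibrillar chains by read count. Col3a1 encodes the only chain of type III (ENSMUSG00000026043, chr1:45311538-45349706). It stood at 419, 933 and 1508 CPM in WT pools 1, 2 and 3 and at 441, 418 and 277 CPM in KO pools 1, 2 and 3. WT pool 1 lay among the KO pools, and WT pools 2 and 3 lay above all of them. Its means were 954 ± 545 (SD, n = 3) in WT and 379 ± 88.7 (SD, n = 3) in KO. The log2 fold change was -1.33 ± 0.42 (SE) with an adjusted p of 0.232 by edgeR, 0.0126 by DESeq2, and 0.0173 by edgeR without WT pool 1. Without WT pool 3 it was -0.83, with an adjusted p of 0.596 by edgeR.

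Type I collagen joins chains from Col1a1 (ENSMUSG00000001506, chr11:94936224-94953042) and Col1a2 (ENSMUSG00000029661, chr6:4504814-4541544). Col1a1 stood at 318, 539 and 906 CPM in the WT pools and at 339, 273 and 187 CPM in the KO pools, in the order of their numbers, which holds for all values that follow. Col1a2 stood at 387, 670 and 1111 CPM in WT and at 430, 331 and 265 CPM in KO. For both chains WT pool 1 was below KO pool 1, and the groups overlapped. The log2 fold change of Col1a1 was -1.14 ± 0.38 (SE), with an adjusted p of 0.242 by edgeR and 0.0236 by DESeq2. That of Col1a2 was -1.08 ± 0.37 (SE), with an adjusted p of 0.246 by edgeR and 0.03 by DESeq2. Leaving out WT pool 1 gave edgeR adjusted p-values of 0.0298 for Col1a1 and 0.026 for Col1a2. Leaving out WT pool 3 gave log2 fold changes of -0.68 and -0.62.

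Type V collagen is a minor fibrillar collagen that sits in type I fibrils and limits their width. Col5a1 stood at 94.0, 203 and 332 CPM in WT and at 119, 89.2 and 61.7 CPM in KO. Col5a2 stood at 91.8, 164 and 224 CPM in WT and at 96.6, 66.6 and 78.8 CPM in KO. Col5a3 stood at 39.9, 82.9 and 110 CPM in WT and at 47.2, 33.8 and 28.6 CPM in KO. The order of the pools repeated that of type I: WT pool 3 highest, WT pool 2 next, and WT pool 1 below KO pool 1. The log2 fold changes were -1.22 ± 0.43, -0.99 ± 0.30 and -1.08 ± 0.35 (SE), with adjusted p-values of 0.252, 0.227 and 0.236 by edgeR. DESeq2 gave 0.0338, 0.0237 and 0.0308, and edgeR without WT pool 1 gave 0.0248, 0.0168 and 0.0179. The log2 fold changes were -0.72, -0.66 and -0.74 without WT pool 3.

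The remaining fibrillar chains tested are known best from cartilage and were scarce here. Col27a1, a chain of developing cartilage, stood at 20.9, 19.9 and 28.0 CPM in WT and at 20.97, 20.3 and 22.05 CPM in KO. Col11a2, a chain of cartilage type XI, stood at 10.8, 10.5 and 9.59 CPM in WT and at 14.2, 6.72 and 8.31 CPM in KO. Neither gene followed the order of the pools seen in types I, III and V. Their log2 fold changes were -0.12 ± 0.16 and -0.081 ± 0.28 (SE), with adjusted p-values of 0.763 and 0.918 by edgeR, and both change sign when certain single pools are left out: Col27a1 to 0.051 without WT pool 3, Col11a2 to 0.13 without KO pool 2 and to 0.011 without KO pool 3. Below 10 CPM, the type XI chain Col11a1 stood at 0.577 to 2.19 CPM in WT and 0.344 to 0.943 CPM in KO. Col2a1, the main collagen of cartilage, stood at 0.385, 0.626 and 0.605 CPM in WT and at 0.879, 0.943 and 0.699 CPM in KO. Its log2 fold change was 0.65 ± 0.40 (SE) with an adjusted p of 0.479 by edgeR.

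Summed over the class, fibrillar RNA stood at 1383, 2626 and 4230 CPM in WT and at 1509, 1241 and 929 CPM in KO. The means were 2746 ± 1428 (SD, n = 3) and 1226 ± 290 (SD, n = 3), so KO was 44.7% of WT. The KO mean was 88.7% of WT pool 1 and 35.8% of the mean of WT pools 2 and 3. The median log2 fold change of the 10 fibrillar genes tested was -1.08. It was -1.39 over the 11 tested without WT pool 1 and -0.67 over the 10 tested without WT pool 3.

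**Figure D2:**
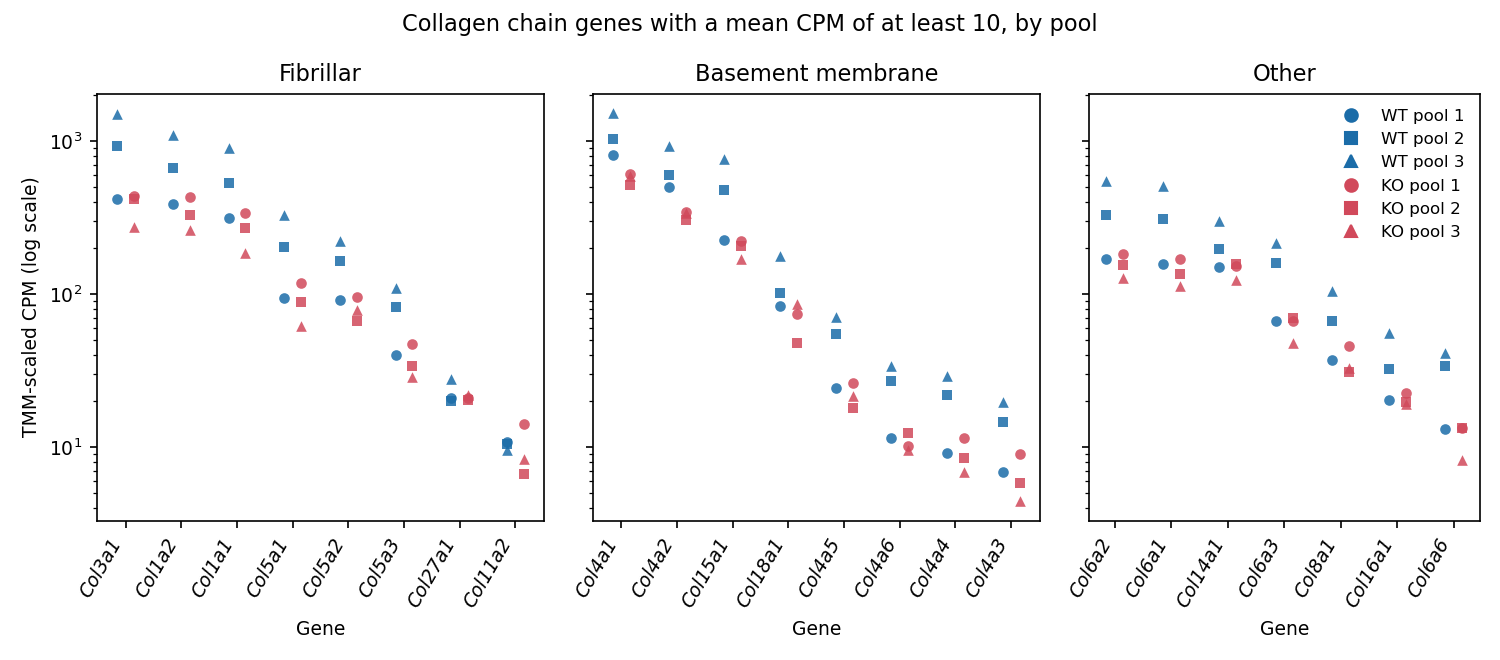
TMM-scaled CPM (vertical axis, log scale) of the 23 collagen chain genes with a mean CPM of at least 10 in each of the 6 pools, WT in blue and KO in red, with 1 point per pool and no error bars. WT pool 3 was the highest pool for 22 of the 23 genes, Col11a2 being the exception. WT pool 1 lay within the range of the KO pools for 20 of the 23, and above all KO pools for Col4a1, Col4a2 and Col15a1.

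All 8 basement membrane chains were tested, and 8 of 8 were lower at an unadjusted p of 0.05, against 10.8% of genes with a mean of at least 10 CPM. Of the 23 collagens with a mean of at least 10 CPM, 3 separated the groups with KO lower. All 3 were in this class. Of all genes at that level, 9.34% separated the groups in this way. A count of 3 is too small to set the class apart from that share. Col4a1 (ENSMUSG00000031502, chr8:11198423-11312826) and Col4a2 (ENSMUSG00000031503, chr8:11312805-11449287) encode the chains of the type IV network found in nearly every basement membrane. Col4a1 stood at 811, 1039 and 1537 CPM in WT and at 615, 519 and 590 CPM in KO. Col4a2 stood at 503, 606 and 932 CPM in WT and at 347, 306 and 339 CPM in KO. For both, all KO pools lay below all WT pools, WT pool 1 included. The means of Col4a1 were 1129 ± 371 (SD, n = 3) in WT and 575 ± 49.7 (SD, n = 3) in KO, and those of Col4a2 were 680 ± 224 and 331 ± 21.9.

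The log2 fold change of Col4a1 was -0.97 ± 0.24 (SE), with an adjusted p of 0.192 by edgeR and 0.0026 by DESeq2. For Col4a2 it was -1.04 ± 0.23 (SE), with an adjusted p of 0.18 by edgeR and 0.000834 by DESeq2. Their standard errors were smaller than those of the type I and III genes. Without WT pool 1, edgeR gave adjusted p-values of 0.0185 and 0.0175. Without WT pool 3 the log2 fold changes were -0.68 and -0.74, with adjusted p-values of 0.448 and 0.326.

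The other type IV genes encode chains of more restricted basement membranes, best known from kidney, lung and smooth muscle. Col4a5 stood at 24.5, 54.6 and 71.0 CPM in WT and at 26.4, 18.03 and 21.7 CPM in KO. Col4a6 stood at 11.5, 27.1 and 33.9 CPM in WT and at 10.2, 12.3 and 9.63 CPM in KO. Col4a4 stood at 9.12, 21.8 and 29.1 CPM in WT and at 11.5, 8.44 and 6.83 CPM in KO. In all of these WT pool 1 lay among the KO pools, as it did for 9 of the 10 fibrillar genes tested (not for Col2a1) and unlike Col4a1 and Col4a2. Col4a3 stood at 6.93, 14.6 and 19.7 CPM in WT and at 8.98, 5.81 and 4.43 CPM in KO. Its exons overlap those of C430014B12Rik over 563 bases, and no source used here gives the strand setting of the counting. The log2 fold changes of Col4a3, Col4a4, Col4a5 and Col4a6 were -1.10 ± 0.40, -1.16 ± 0.40, -1.18 ± 0.35 and -1.17 ± 0.36 (SE), with adjusted p-values of 0.265, 0.248, 0.226 and 0.227 by edgeR. DESeq2 gave 0.0712, 0.0458, 0.016 and 0.0215, and edgeR without WT pool 1 gave 0.0346, 0.0182, 0.014 and 0.0134. Without WT pool 3 the log2 fold changes were -0.74, -0.78, -0.84 and -0.84.

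Col15a1, a proteoglycan chain that lies between basement membranes and fibrils of vessels and muscle, stood at 227, 482 and 763 CPM in WT and at 225, 208 and 171 CPM in KO. KO pool 1 was just under WT pool 1. Col18a1, whose end fragment is endostatin, stood at 84.1, 102 and 179 CPM in WT and at 74.0, 48.2 and 86.9 CPM in KO. The groups overlapped because KO pool 3 was above WT pool 1. The log2 fold change of Col15a1 was -1.29 ± 0.38 (SE), with an adjusted p of 0.227 by edgeR and 0.00921 by DESeq2. That of Col18a1 was -0.80 ± 0.31 (SE), with 0.284 by edgeR and 0.105 by DESeq2. Without WT pool 1, edgeR gave adjusted p-values of 0.0145 for Col15a1 and 0.0815 for Col18a1. The log2 fold changes were -0.81 and -0.41 without WT pool 3.

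Summed over the class, basement membrane RNA stood at 1677, 2347 and 3565 CPM in WT and at 1318, 1126 and 1229 CPM in KO. The KO mean was 48.4% of the WT mean, 73.0% of WT pool 1 and 41.4% of the mean of WT pools 2 and 3. The median log2 fold change of the 8 genes was -1.13, and -1.46 without WT pool 1. Set beside the fibrillar sum, the basement membrane sum was 1.21, 0.894 and 0.843 times as large in WT and 0.873, 0.907 and 1.32 times in KO, so the balance of the classes overlapped between groups. The highest ratios were those of WT pool 1 and KO pool 3.

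Among the other collagens, the type VI chains were the most abundant. Col6a1 stood at 158, 310 and 509 CPM in WT and at 172, 135 and 114 CPM in KO. Col6a2 stood at 171, 332 and 549 CPM in WT and at 183, 155 and 128 CPM in KO. Col6a3, the largest chain of the beaded filament, stood at 66.4, 161 and 218 CPM in WT and at 66.7, 69.8 and 48.3 CPM in KO. WT pool 1 lay among the KO pools for each of them. Col6a6, a chain that can take the place of the Col6a3 product, stood at 13.1, 33.9 and 41.4 CPM in WT and at 13.4, 13.4 and 8.23 CPM in KO.

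The log2 fold changes of Col6a1, Col6a2, Col6a3 and Col6a6 were -1.21 ± 0.38, -1.17 ± 0.38, -1.27 ± 0.38 and -1.34 ± 0.40 (SE). Their adjusted p-values were 0.232, 0.232, 0.227 and 0.227 by edgeR and 0.016, 0.0189, 0.0126 and 0.014 by DESeq2. Without WT pool 1 they were 0.0175, 0.0173, 0.0136 and 0.0148 by edgeR. Without WT pool 3 the log2 fold changes were -0.73, -0.69, -0.88 and -1.01. The type VI sum was 43.2% as large in KO as in WT by means, with 411 to 1318 CPM in WT and 299 to 436 CPM in KO, and 34.3% as large against WT pools 2 and 3.

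The other chains above 10 CPM decorate fibrils or form other networks. Col14a1, which binds the surface of fibrils, stood at 150, 198 and 301 CPM in WT and at 154, 159 and 123 CPM in KO. Col16a1, of the same family, stood at 20.4, 32.7 and 56.0 CPM in WT and at 22.7, 19.8 and 19.3 CPM in KO. Col8a1, a short chain of networks in vessel walls, stood at 37.2, 66.7 and 105 CPM in WT and at 45.7, 31.2 and 32.8 CPM in KO. None of them separated the groups, since WT pool 1 was within the KO range for all 3. Their log2 fold changes were -0.57 ± 0.25, -0.82 ± 0.32 and -0.93 ± 0.34 (SE), with adjusted p-values of 0.321, 0.292 and 0.267 by edgeR and 0.186, 0.118 and 0.0721 by DESeq2. Without WT pool 1, edgeR gave 0.0561, 0.03 and 0.0254. The log2 fold changes were -0.26, -0.36 and -0.50 without WT pool 3.

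Of the 13 other collagens tested below a mean of 10 CPM, the named ones are those with the smallest p-values. Col23a1, a membrane-spanning collagen, stood at 4.96, 5.63 and 8.29 CPM in WT and at 3.93, 3.81 and 3.57 CPM in KO. Col13a1, also membrane-spanning, stood at 1.89, 2.40 and 3.77 CPM in WT and at 0.955, 1.22 and 1.63 CPM in KO. Of these 13 genes, 3 separated the groups with KO lower, where 10.1% of all genes tested did. Col23a1 and Col13a1 were among the 3. Their log2 fold changes were -0.74 ± 0.24 and -1.08 ± 0.37 (SE), with adjusted p-values of 0.241 and 0.247 by edgeR. Without WT pool 3 they were -0.48 and -0.75 on the log2 scale. Col12a1, which binds fibrils in dense tissue, stood at 4.50, 12.0 and 10.99 CPM in WT and at 6.00, 4.67 and 3.26 CPM in KO, a log2 fold change of -0.98 ± 0.39 (SE) and an adjusted p of 0.297 by edgeR, or 0.0314 without WT pool 1. The median log2 fold change of the 20 other collagens tested was -1.02. It was -1.28 over the 21 tested without WT pool 1 and -0.67 over the 20 tested without WT pool 3.

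The 6 genes left out by the filter were Col6a4, Col9a1, Col10a1, Col19a1, Col22a1 and Col24a1, with 0 to 16 reads per library. At these depths a count of 0 allows up to 3 reads, 0.115 to 0.156 CPM, for counting error only. A difference in these genes was not detectable at this depth.

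Levels of different genes were compared as reads scaled by merged exon length and library size (RPKM), averaged over the 6 pools. Col4a1 ranked highest with a mean level of 114 RPKM, followed by Col4a2 with 76.4, Col3a1 with 67.9, Col1a1 with 65.1 and Col15a1 with 54.5. Col6a1 and Col1a2 followed with 53.2 and 42.8 RPKM. Some neighbours stood in the opposite order in the groups: the WT means were 97.2 RPKM for Col3a1 and 89.5 for Col1a1, and the KO means were 38.6 and 40.6. Likewise the WT means were 77.3 RPKM for Col15a1 and 74.4 for Col6a1, and the KO means were 31.7 and 32.0. These small gaps lay within the SD over the pools of each group. With the length of the transcript that has the longest coding sequence instead, Col4a1 stayed first and Col3a1 and Col1a2 moved to the next places, ahead of Col4a2. The order below the first place thus depended on the length used, and for Col1a2 the merged exons (12426 bases) were much longer than that transcript (5348 bases). The levels of Col4a2, Col3a1 and Col1a1 lay closer to each other than the spread over pools, which was 3.04-fold, 5.44-fold and 4.86-fold between the lowest and highest pool.

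Ratios between chains were compared for 9 pairs, and in 3 of them, partners in types VI, IV and I, the ratio varied little while the levels spanned several-fold. Col6a1 and Col6a2, partners in type VI, had levels spanning 4.47-fold and 4.30-fold over the 6 pools. The ratio of their levels per exon length spanned 1.66 to 1.78, a range of 1.08-fold. Col4a1 over Col4a2 spanned 1.43 to 1.57, a range of 1.10-fold, and these are the genes whose windows share 78 bases in the sequences shown. Col1a1 over Col1a2 spanned 1.34 to 1.56, a range of 1.17-fold, or 0.636 to 0.745 by transcript length. For these 3 pairs the range covers WT pool 1, WT pools 2 and 3 and the KO pools alike.

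The other pairs varied more, partners in the same types included. Col6a3 over Col6a1, also of type VI, spanned 0.142 to 0.190, a range of 1.34-fold. Col4a3 over Col4a4, divergent neighbours, spanned 0.690 to 0.829, but Col4a5 over Col4a6, also divergent neighbours of type IV, spanned 1.73 to 3.07, a range of 1.77-fold. Col3a1 over Col1a1, from separate molecules of the same fibrils, spanned 0.869 to 1.16. Col5a1 over Col5a2 spanned 0.885 to 1.67, a range of 1.89-fold, although both belong to type V, with the lowest value in KO pool 3. Col15a1 over Col18a1 had the widest range of the 9 pairs, 2.17 to 5.24, with 2.98, 5.24 and 4.70 in WT and 3.35, 4.77 and 2.17 in KO. In all 9 pairs the ratios of the groups overlapped.

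**Figure D3:**
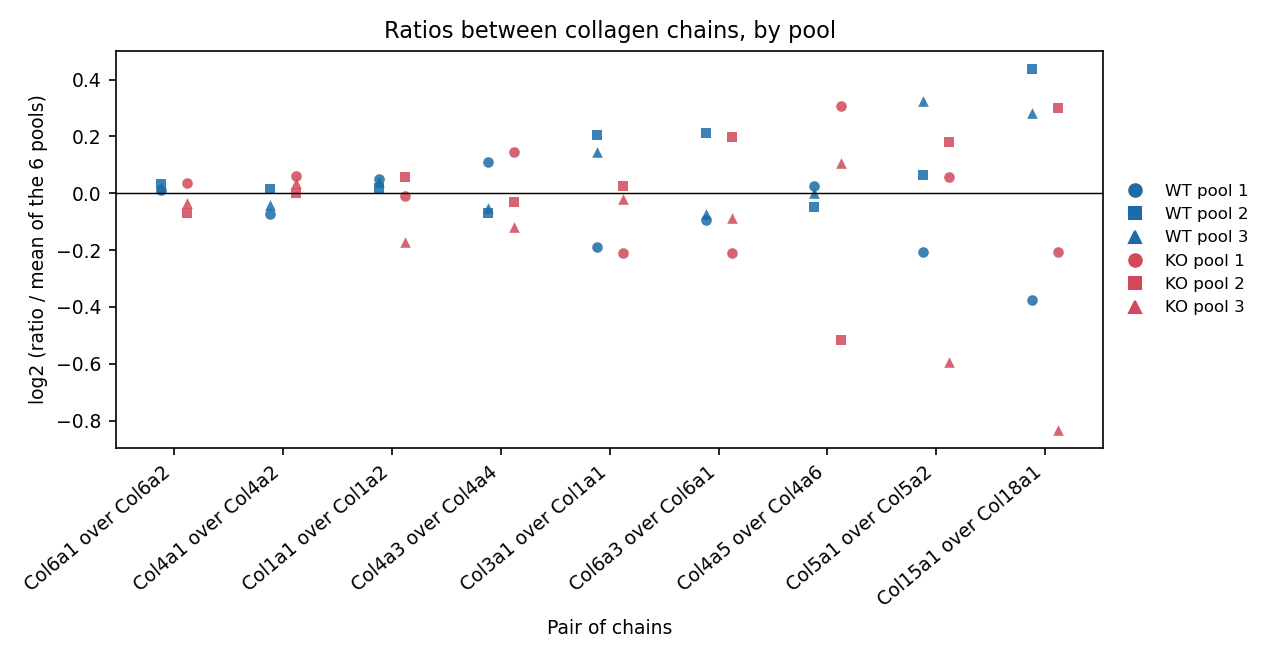
Ratios between levels per exon length of 9 pairs of collagen chains, drawn as log2 of the ratio over the mean of the 6 pools (vertical axis), with 1 point per pool, WT in blue and KO in red. Col6a1 over Col6a2 lies within a 1.08-fold range and Col15a1 over Col18a1 within a 2.41-fold range, and the groups overlap in every pair.

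Markers of fibroblasts and vessel cells also had lower means in the KO pools. Of 12 fibroblast markers that are not collagens, 12 had a log2 fold change below 0, with a median of -1.12, and no listed marker of this or any other type was at 0 in any library. Their summed level was 3602, 7705 and 11734 CPM in WT and 4374, 3864 and 3317 CPM in KO, so WT pool 1 lay among the KO pools, as in the fibrillar sum. Most of this sum was 1 gene, Gsn, with 2477, 5302 and 8247 CPM in WT and 3091, 2727 and 2344 CPM in KO. For 10 endothelial markers the sum was 2090, 2424 and 3490 CPM in WT and 1130, 1177 and 1486 CPM in KO, with 10 of 10 below 0 and a median of -1.09. Here, as for Col4a1 and Col4a2, every WT pool lay above every KO pool. For 11 mural cell markers (pericytes and smooth muscle) the sum was 2461 to 4052 CPM in WT and 1528 to 2280 CPM in KO. Every WT pool thus lay above every KO pool for mural markers too, with 11 of 11 below 0 and a median of -0.92.

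Macrophage markers stood the other way: 9 of 10 had a log2 fold change above 0, with a median over the 10 of 0.47. The exception, Lyz2, was the second gene called lower. It stood at 6700, 4074 and 4327 CPM in WT and at 17.4, 19.2 and 19.3 CPM in KO. Its log2 fold change was -8.08 ± 0.33 (SE), with an adjusted p of 0.000178 by edgeR. With Lyz2, the macrophage sum was 17145, 9616 and 11408 CPM in WT and 10813, 10481 and 11281 CPM in KO, so the groups overlapped. Without Lyz2, a choice made after seeing the data, the macrophage sum was 10445, 5541 and 7081 CPM in WT and 10796, 10462 and 11262 CPM in KO. WT pool 1 was next to the KO pools, and WT pools 2 and 3 were lower. Cardiomyocyte markers summed to 223 to 377 CPM in WT and 160 to 283 CPM in KO. Mesothelial markers, of the heart's surface layer, summed to 29.5 to 49.8 CPM in WT and 14.1 to 30.3 CPM in KO, and Schwann cell markers to 9.81 to 20.8 and 6.44 to 11.5 CPM. Erythroid markers, of red blood cells, summed to 1876 CPM in WT pool 1, 75.5 and 142 CPM in WT pools 2 and 3, and 36.2 to 84.7 CPM in KO. The part of any of these cells in the collagen values was not tested.

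**Figure D4:**
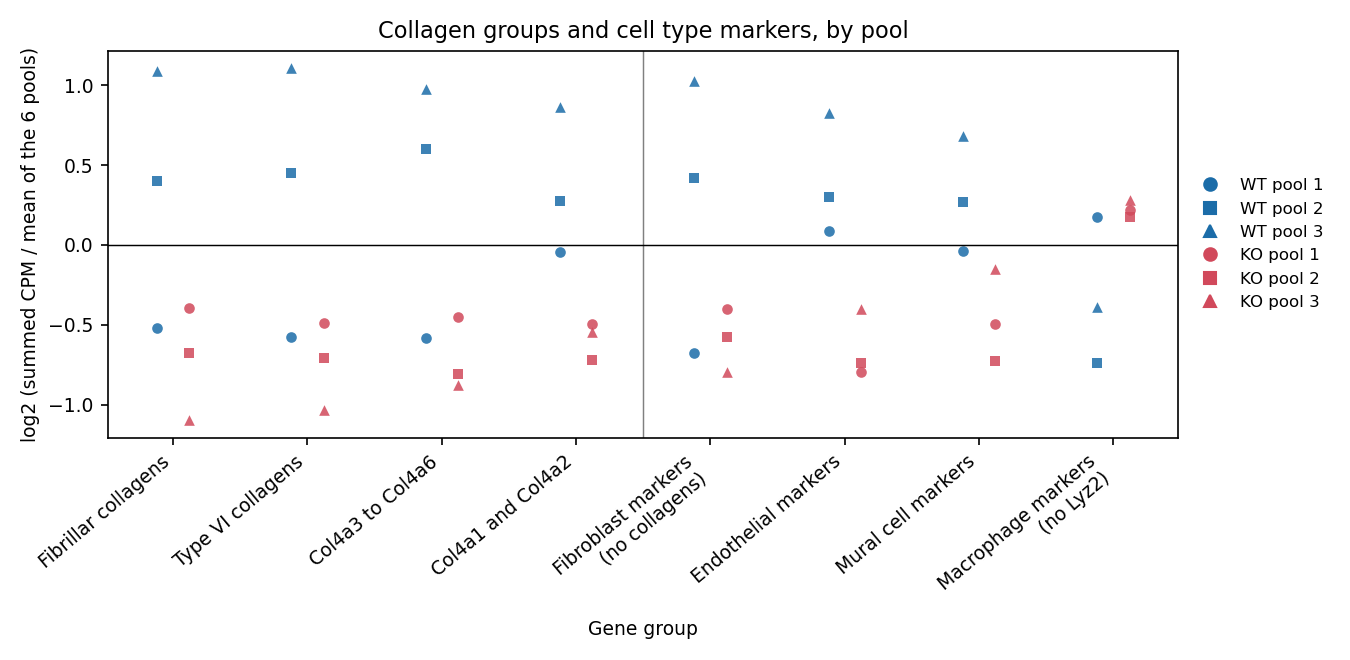
Summed CPM of 4 collagen groups (left) and 4 marker lists (right) in each pool, drawn as log2 of the sum over the mean of the 6 pools (vertical axis), WT in blue and KO in red, with 1 point per pool. WT pool 1 lies among the KO pools for fibrillar, type VI and Col4a3 to Col4a6 sums and for fibroblast markers, and above all KO pools for the sum of Col4a1 and Col4a2 and for endothelial and mural markers.

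Set against these markers, collagen levels spanned narrower ranges over the pools. The fibrillar sum over the fibroblast marker sum was 0.384, 0.341 and 0.361 in WT and 0.345, 0.321 and 0.280 in KO, a 1.37-fold range, with overlapping groups. The fibrillar sum over the endothelial marker sum had a 2.14-fold range. For Col4a1 and Col4a2 together, the ratio to endothelial markers was 0.629, 0.679 and 0.708 in WT and 0.852, 0.701 and 0.625 in KO, a 1.36-fold range, and the ratio to fibroblast markers had a 1.73-fold range. Each ratio overlapped between groups. The type VI sum over fibroblast markers did not overlap: it was 0.114, 0.109 and 0.112 in WT and 0.0996, 0.0968 and 0.0901 in KO. These ratios are descriptions of 6 pools, with no test. Most of the fibroblast marker sum was Gsn, and no ratio to mural cell markers was taken.

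Genes that act on collagen outside the cell, and the proteins that share its matrix, had median fold changes near those of the collagens. Of 19 genes for processing, fibril assembly and cross-linking, 19 had a log2 fold change below 0, with a median of -1.003. Dcn and Lum stand in this list and in the fibroblast list. At an unadjusted p of 0.05, 14 were lower and 0 higher, against 10.6% and 4.77% of all genes tested. EdgeR called 0 with all pools and 12 lower without WT pool 1, against 0.0127% and 5.97%, and DESeq2 called 8 lower, against 4.39%. Sparc, a collagen-binding secreted protein, stood at 560, 766 and 1285 CPM in WT and at 431, 349 and 414 CPM in KO, a log2 fold change of -1.13 ± 0.29 (SE) and an adjusted p of 0.194 by edgeR. Loxl2, an enzyme that cross-links collagen, had a log2 fold change of -1.29 ± 0.42 (SE) with an adjusted p of 0.237. Tnxb, a matrix protein that binds fibrils, had -1.21 ± 0.38 (SE) with 0.229, and Pcolce, which aids removal of the procollagen end, had -0.94 ± 0.31 (SE) with 0.237.

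Of 10 other basement membrane proteins, 10 had a log2 fold change below 0, with a median of -1.02, and 9 were lower at an unadjusted p of 0.05, against 10.6% of all genes. EdgeR called 0 with all pools and 9 lower without WT pool 1, against 5.97%, and DESeq2 called 8 lower, against 4.39%. All KO pools lay below all WT pools for 8 of the 10, against 10.1% of all genes. Hspg2, the gene of perlecan, stood at 630, 1128 and 1332 CPM in WT and at 395, 423 and 336 CPM in KO, a log2 fold change of -1.42 ± 0.27 (SE) and an adjusted p of 0.158 by edgeR. The laminin genes Lama4, Lama2 and Lamb1 had log2 fold changes of -1.27 ± 0.29, -1.34 ± 0.37 and -1.22 ± 0.34 (SE), with adjusted p-values of 0.183, 0.208 and 0.213.

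Genes that make and fold the chains inside the cell were more mixed. Of 18 tested of 19 listed, 11 had a log2 fold change below 0 and 7 above, with a median of -0.24. At an unadjusted p of 0.05, 5 were lower and 2 higher, against 10.6% and 4.77% of all genes. EdgeR called 0 with all pools and 6 lower without WT pool 1, against 5.97%. DESeq2 called 3 lower and 1 higher, against 4.39% and 1.13%. A count of 1 higher gene is too small to set against that share. P4ha1, a subunit of the enzyme that hydroxylates proline in the helix, stood at 116, 119 and 130 CPM in WT and at 203, 154 and 155 CPM in KO. Every KO pool was above every WT pool, as in 3 of the 18 genes and in 9.59% of all genes tested. For 4 of the 18, every KO pool was below every WT pool, against 10.1% of all genes. The log2 fold change of P4ha1 was 0.49 ± 0.14 (SE), opposite in sign to most collagens. Its adjusted p was 0.218 by edgeR and 0.0491 by DESeq2. Colgalt2, which adds galactose to collagen, stood at 11.8, 21.01 and 32.5 CPM in WT and at 7.26, 7.19 and 8.31 CPM in KO, a log2 fold change of -1.52 ± 0.34 (SE) and an adjusted p of 0.18 by edgeR. Fkbp10, a collagen chaperone, had -1.16 ± 0.32 (SE) with 0.205, and P3h4, of the prolyl 3-hydroxylase family, had -0.95 ± 0.27 (SE) with 0.217.

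Of 12 receptors and uptake genes, 9 had a log2 fold change below 0 and 3 above, with a median of -0.70. At an unadjusted p of 0.05, 6 were lower and 0 higher, against 10.6% and 4.77% of all genes. EdgeR called 0 with all pools, and 4 lower and 1 higher without WT pool 1, against 5.97% and 2.33%. DESeq2 called 4 lower, against 4.39%. Itga1, the chain of the integrin that binds type IV collagen, stood at 74.7, 102 and 110 CPM in WT and at 41.5, 44.1 and 54.0 CPM in KO, a log2 fold change of -1.04 ± 0.17 (SE) and an adjusted p of 0.152 by edgeR. Ddr2, a receptor kinase for fibrillar collagen that is also in the fibroblast list, had -1.14 ± 0.29 (SE) with 0.194. Itga2, of another collagen integrin, had -1.12 ± 0.35 (SE) with 0.228, and Mrc2, which takes collagen into cells for breakdown, had -1.13 ± 0.38 (SE) with 0.246.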

How the data were processed

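The authors deposited 1 table of raw read counts per gene for each of 6 libraries. Per the submitters' processing notes, STAR, HTSeq and DESeq2 were used with GRCm38; no source used here gives versions, the annotation release or the strand setting. Per the labels' protocols the library kit was directional. The 5 counters that name no gene were left out of library sizes. Reads in no gene made up 5.90% to 8.62%, ambiguous reads 1.49% to 1.72% and reads not mapped uniquely 7.58% to 8.67%. Genes were filtered with filterByExpr (minimum count 10), scaled by TMM and tested with edgeR 4.0.16 (quasi-likelihood, genotype only, Benjamini-Hochberg over 15707 genes, threshold 0.05), tested first on simulated data. DESeq2 1.42.0 and limma 3.58.1 (voom), other scalings and filters, the replicate number as a block and each library left out were alternatives. Members and lists were chosen with earlier results of these data known. Collagens with a mean CPM of at least 10 have every pool printed; below it, up to 3 per class with the smallest p-values are named, and up to 4 per pathway list with a mean CPM of at least 1. Lengths came from GENCODE M21, sequences from RefSeq.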

Additional observations from a re-analysis of the deposited data

How the results depend on the processing

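The number of collagens called, 0 with all libraries in edgeR, was 16 by DESeq2 and 17 with no low-count filter, and ranged from 0 to 20 when each library was left out in turn, the highest value being without WT pool 1. Over all genes the 2 calls became 831 by DESeq2, 1 by limma-voom and 782 with no filter, and ranged from 1 to 1338 with libraries left out. The cause of these differences was not tested. Median log2 fold changes with libraries left out ranged from -1.39 to -0.67 for fibrillar, from -1.46 to -0.76 for basement membrane and from -1.28 to -0.67 for other collagens. Under the 9 other settings they ranged from -1.14 to -0.99, from -1.19 to -0.99 and from -1.08 to -0.91. Each median was over the collagens tested in that fit, whose number varied. The log2 fold change of Col27a1 ranged from -0.22 to 0.051 with libraries left out, and that of Col11a2 from -0.45 to 0.13, its sign also changing without KO pool 3 (0.011). Beyond those changes, no alternative run changed the sign of any of the 28 collagens compared across settings. These were the collagens above 10 CPM and Col2a1, Col11a1, Col12a1, Col13a1 and Col23a1. With a filter at a mean CPM of 5, 25 of the 28 were fitted. Signs of the other collagens tested were not compared. With the replicate number as a block, 3 genes and 0 collagens were called, and the medians were -0.99 for fibrillar, -1.05 for basement membrane and -0.97 for other collagens. Deviations of same-numbered pools correlated at 0.097, -0.160 and 0.006, so the numbers were not taken as pairs.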
